A study of Homo sapiens with 12 samples.

Results

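The 10 collagen genes described here were measured across RNA sequencing libraries of SCC-15, an established cell line of human oral squamous cell carcinoma. They are COL1A1, COL1A2, COL3A1, COL4A1, COL4A2, COL5A1, COL6A1, COL12A1, COL16A1 and COL17A1. The 10 genes were taken by symbol from the 61044 rows of the gene table, and 34 further collagen genes of the same table serve as their setting. In the control group, NC, the cells carried a hairpin RNA that served as negative control, and in the groups shRNA1, shRNA2 and shRNA3 a different hairpin against FMOD each. All were harvested at 48 hours, and the 12 libraries fall 3 to a group. FMOD encodes fibromodulin, a small leucine-rich proteoglycan that binds collagen fibrils, and the study depleted it to find the genes whose expression changes. The labels do not say whether libraries of a group came from separate cultures, or whether a line is 1 clone, so the p-values below measure the spread between these libraries, which may be technical.

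Collagens are proteins of the extracellular matrix built from chains that wind around each other into a triple helix. Type I, type III and type V collagens form fibrils, and types XII and XVI lie on fibril surfaces. Type IV collagen forms the network of basement membranes, the sheets on which epithelia rest, and type VI forms beaded filaments next to them. Type XVII collagen, encoded by COL17A1, spans the membrane of basal keratinocytes in the hemidesmosome, the junction that ties these cells to the basement membrane. Most collagen of connective tissue is made by fibroblasts, while epithelial cells are known for types IV, VII and XVII. Many collagens need chains from more than 1 gene, so the balance between partner chains matters for assembly.

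Promoter windows from RefSeq (GRCh38.p14, 250 bases before to 50 bases after the transcript start) were found for 6 of the 10 genes: COL4A1, COL4A2, COL5A1, COL12A1, COL16A1 and COL17A1. The windows of COL4A1 and COL4A2 are shown because both genes of this pair start from opposite strands of the same stretch of chromosome 13 and yet differed in their response. COL16A1 is shown as the gene with the deepest fall among those well above the detection limit, and COL17A1 as the one that was called higher. Capitals mark matches, on either strand, to the CCAAT box, to the GC box with the letters GGGCGG and to the TATA box with the letters TATAAA. Each window is written 5′ to 3′ on the strand of its gene, in the order COL4A1 (chr13:110307108-110307407, minus strand), COL4A2 (chr13:110307034-110307333, plus strand), COL16A1 (chr1:31703968-31704267, minus strand) and COL17A1 (chr10:104085831-104086130, minus strand).
COL4A1: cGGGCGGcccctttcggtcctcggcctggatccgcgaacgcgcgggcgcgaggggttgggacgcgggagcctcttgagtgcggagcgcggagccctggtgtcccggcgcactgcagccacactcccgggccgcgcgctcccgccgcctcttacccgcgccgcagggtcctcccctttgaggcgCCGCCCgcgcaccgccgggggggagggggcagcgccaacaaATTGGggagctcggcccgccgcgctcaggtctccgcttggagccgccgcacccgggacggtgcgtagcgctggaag
COL4A2: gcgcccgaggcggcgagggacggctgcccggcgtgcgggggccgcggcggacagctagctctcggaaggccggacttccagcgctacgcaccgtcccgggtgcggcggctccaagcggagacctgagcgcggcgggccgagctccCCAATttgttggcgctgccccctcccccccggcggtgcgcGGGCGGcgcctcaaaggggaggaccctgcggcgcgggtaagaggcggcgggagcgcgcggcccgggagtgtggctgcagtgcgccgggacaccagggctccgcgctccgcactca
COL16A1: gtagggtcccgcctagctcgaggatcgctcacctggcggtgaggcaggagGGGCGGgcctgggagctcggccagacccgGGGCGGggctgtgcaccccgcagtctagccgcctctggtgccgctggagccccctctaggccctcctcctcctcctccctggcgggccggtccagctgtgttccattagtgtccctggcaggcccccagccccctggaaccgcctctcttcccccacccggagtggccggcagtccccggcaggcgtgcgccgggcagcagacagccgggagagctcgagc
COL17A1: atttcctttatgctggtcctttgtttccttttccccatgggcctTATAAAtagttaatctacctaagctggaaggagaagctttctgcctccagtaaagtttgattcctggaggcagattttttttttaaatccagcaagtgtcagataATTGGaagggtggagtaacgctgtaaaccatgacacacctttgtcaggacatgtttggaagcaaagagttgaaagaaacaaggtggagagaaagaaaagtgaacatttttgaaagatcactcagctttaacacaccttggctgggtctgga

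The RefSeq starts of COL4A1 (110307157) and COL4A2 (110307284) lie 127 bases apart, and the printed windows share 226 bases. The CCAAT at -105 of COL4A2 and the ATTGG at -26 of COL4A1 are the same 5 bases, at 110307179 to 110307183 (positions count back from the transcript start, with -1 the base before it). The windows of COL4A1, COL4A2 and COL16A1 were rich in G and C, at 76.7%, 77.7% and 73.7% of bases, and each held GGGCGG. COL17A1 had 40.7% G and C, a CCAAT in reverse at -101 and a TATAAA at -206, and no GGGCGG. Among 35116 RefSeq promoter windows of the same length, 34.6% held CCAAT, 45.0% GGGCGG and 11.5% TATAAA on either strand. A match is a string of letters, not a measured binding site.

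Library totals lay between 17286975 and 19567248 estimated counts, and levels are given in CPM, counts relative to a library total scaled by TMM, a normalisation that sets the bulk of genes equal between libraries. Libraries 1 and 2 of shRNA3 stood apart, with TMM factors of 0.771 and 0.795 against 0.979 to 1.11 in the other 10. The lowest correlation of log2 CPM within a group was 0.903 in shRNA3 and 0.973 in the other groups, and NC against shRNA libraries gave 0.751 to 0.772. For most of the 10 genes, results on shRNA3 are therefore also given without these libraries, which leaves library 3 alone for that hairpin. Any p given for library 3 alone takes its spread from the other groups and assumes that this library varies as theirs do, so it says nothing of the spread among shRNA3 libraries. FMOD itself had 2, 2 and 3 counts in the NC libraries and 0 in all 9 shRNA libraries, so the hairpin labels could hardly be checked at this depth. More than 1 gene in 2 differed between the shRNA and NC groups in edgeR's quasi-likelihood test at an adjusted p under 0.05 (Benjamini-Hochberg over 17532 genes), and any count of collagen genes has to be read against that. The labels give 1 cell line for all groups, and the hairpins cannot be told apart from any other difference between the NC cells and the shRNA cells, which bears on every fold change against NC.

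Of the 10 genes, 9 passed the filter on low counts, and COL3A1 did not. Of these 9, 5 were called for shRNA1 (0 higher, 5 lower), where 57.4% of all tested genes were called (26.8% higher, 30.6% lower). For shRNA2, 5 were called (1 higher, 4 lower) against 53.0% of all genes (24.6% higher, 28.4% lower). For shRNA3 5 were called (1 higher, 4 lower) against 53.9% (26.4% higher, 27.6% lower). In the mean of the 3 hairpins against NC, 6 were called (1 higher, 5 lower) against 60.0% of all genes (27.9% higher, 32.2% lower). In these fits the share of collagen genes called was near the background. Without libraries 1 and 2 of shRNA3 the counts were 6 for shRNA3 (0 higher, 6 lower), beside 56.9% of 19094 genes, and 9 for the mean (1 higher, 8 lower), beside 73.1%. COL1A2, COL4A2 and COL16A1 were called lower for all 3 hairpins, 3 of 9 where 19.7% of all genes were. COL1A2 passed the filter through NC alone, so it could only be called lower. No member was called higher for all 3, where 16.0% of all genes were, so that 35.7% were called in 1 direction. The same 3 genes were below every NC library in all 9 shRNA libraries, and no member was above every NC library in all 9. Over all genes 25.8% were below, 19.0% above and thus 44.8% without overlap. The median log2 fold change of the 9 genes was -1.10 for shRNA1, -0.58 for shRNA2 and -0.14 for shRNA3, beside -0.02, -0.05 and -0.03 for all genes. The 3 hairpin comparisons share the same NC libraries.

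**Figure D1:**
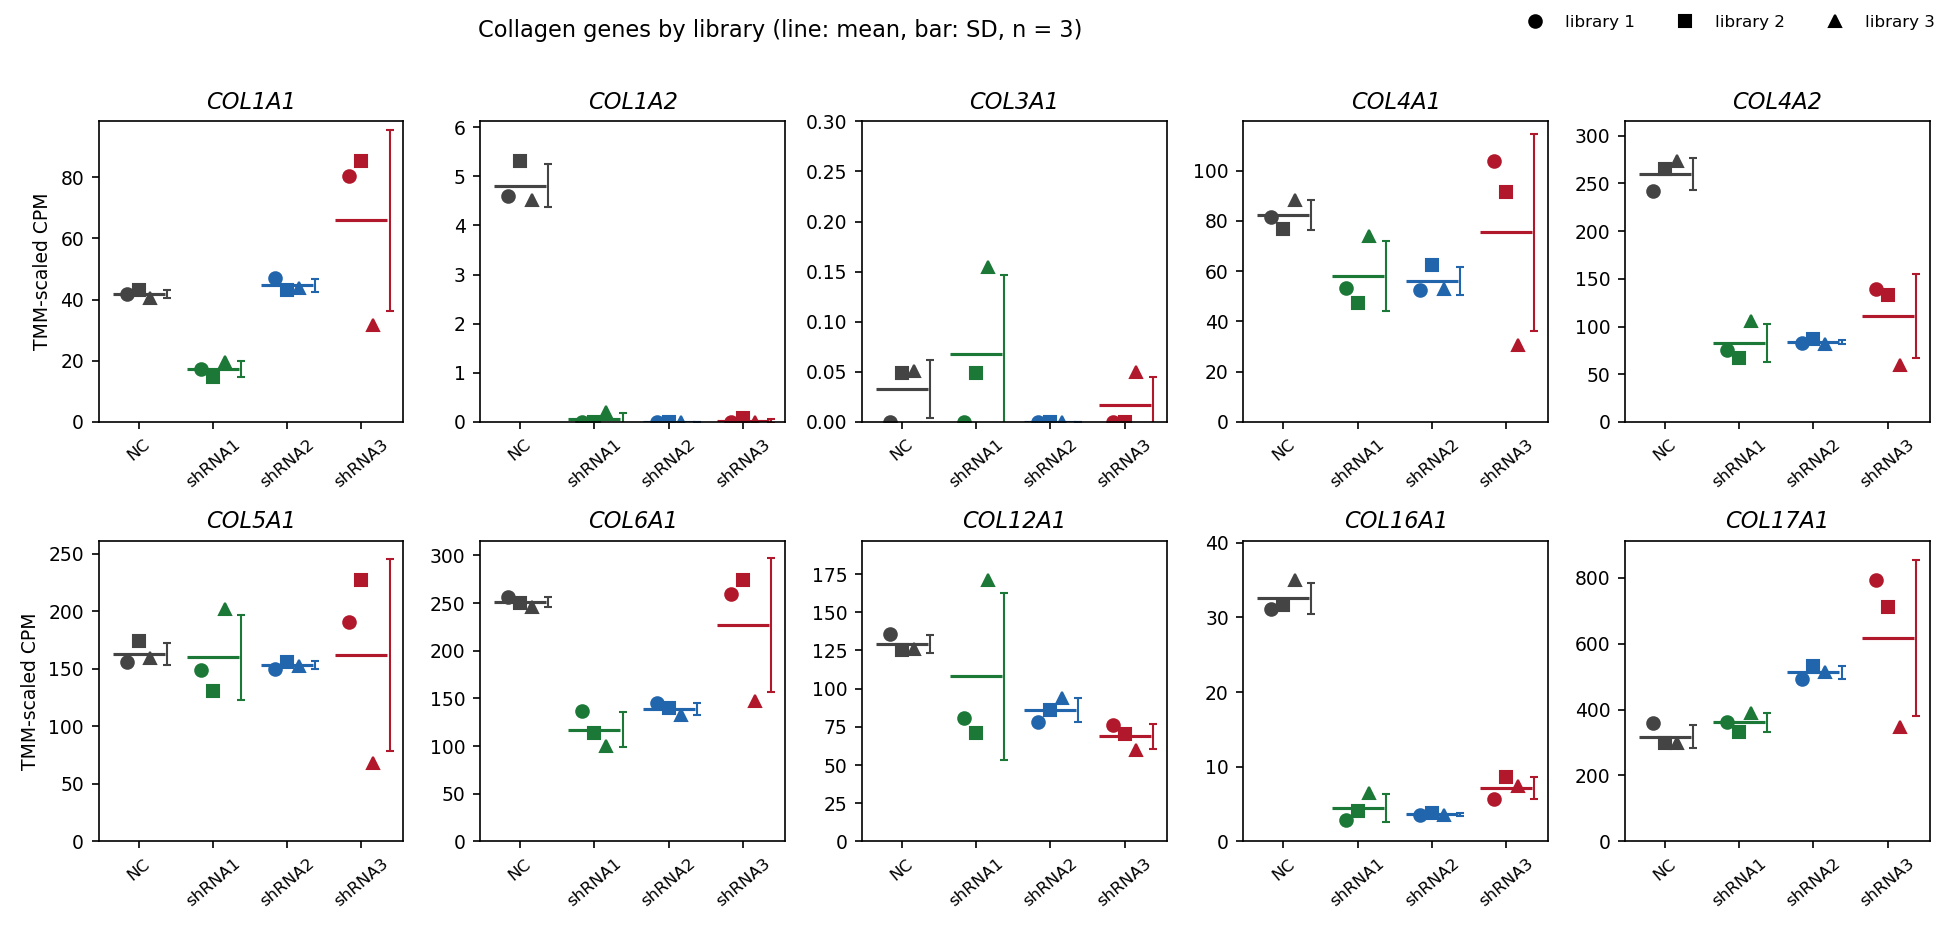
TMM-scaled CPM (linear axis from 0, with its own range in each panel) of the 10 collagen genes in each library, by group. Markers tell libraries 1, 2 and 3 apart, lines are group means and bars are SD (n = 3). COL1A2, COL4A2 and COL16A1 are lower in all 9 shRNA libraries than in any NC library. Libraries 1 and 2 of shRNA3 lie apart from library 3 for COL1A1, COL4A1, COL4A2, COL5A1, COL6A1 and COL17A1.

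The fibril-forming type I chains moved apart. COL1A2 (ENSG00000164692, chromosome 7, 94394561 to 94431232, plus strand, GRCh38, with an antisense gene overlapping it) encodes the alpha-2 chain of type I collagen. It had 91, 108 and 89 counts in the NC libraries, or 4.59, 5.32 and 4.52 CPM. In shRNA1 it had 0, 0 and 4 counts, in shRNA2 0 in all 3 libraries, and in shRNA3 0, 1 and 0. All shRNA libraries were below all NC libraries, at or close to the detection limit of 3 counts per library. Pooled counts gave a level 72.3-fold lower for shRNA1 (95% interval for counting error 28.0 to 267.0) and 228.0-fold lower for shRNA3 (40.6 to 9030.0). For shRNA2, with no count, it was at least 28.2-fold lower. The adjusted p was 0.000299, 0.000161 and 0.000266 for shRNA1, shRNA2 and shRNA3 in edgeR.

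COL1A1 (ENSG00000108821, chromosome 17, 50183289 to 50201632, minus strand), the alpha-1 chain that makes up the larger part of type I collagen, differed between hairpins instead. Its level was 41.7, 43.1 and 40.4 CPM in NC, 17.4, 14.8 and 19.7 CPM in shRNA1 and 47.0, 43.2 and 43.7 CPM in shRNA2. In shRNA3 it was 80.4, 85.4 and 31.8 CPM, so libraries 1 and 2 were above every NC library and library 3 below. The log2 fold change was -1.27 ± 0.29 (SE, adjusted p = 0.00321) for shRNA1, 0.10 ± 0.29 (adjusted p = 0.801) for shRNA2 and 0.66 ± 0.29 (adjusted p = 0.0738) for shRNA3 in edgeR. With library 3 of shRNA3 alone the value was -0.36 (adjusted p = 0.0751), and without library 3 it was 0.99 (adjusted p = 2.4e-06), so which shRNA3 libraries enter decides the direction. Counts of COL1A1 were 8.1 to 9.08 times those of COL1A2 in NC, while in shRNA libraries COL1A1 kept 305 to 1172 counts with 0 to 4 for COL1A2.

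COL3A1 (ENSG00000168542, chromosome 2, 188974320 to 189012746, plus strand), the chain of type III collagen, was not detectable at this depth. The NC libraries held 0, 1 and 1 counts, the shRNA1 libraries 0, 1 and 3, the shRNA2 libraries 0, and the shRNA3 libraries 0, 0 and 1. No fold change was computed, since all groups were at or under 3 counts per library.

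COL5A1 (ENSG00000130635, chromosome 9, 134641774 to 134844843, plus strand) encodes a chain of type V collagen, which helps set fibril width. It was at 156, 174 and 159 CPM in NC, 149, 131 and 202 CPM in shRNA1, 150, 156 and 152 CPM in shRNA2 and 191, 227 and 68.4 CPM in shRNA3. The shRNA and NC libraries overlapped for shRNA1 and shRNA2, and the shRNA3 libraries lay on both sides of NC. Log2 fold changes were -0.02 ± 0.33, -0.09 ± 0.33 and -0.01 ± 0.33 (SE), with adjusted p of 0.96, 0.831 and 0.99 in edgeR. Without libraries 1 and 2 of shRNA3 the third value was -1.22 (adjusted p = 0.000206), and without library 3 it was 0.36 (adjusted p = 0.0382). Its partner chain COL5A2 was scarce, with 19 to 41 counts in NC, shRNA1 and shRNA2 and 2, 1 and 18 counts in shRNA3, so no ratio of these chains was tested. COL5A2 was not called for any hairpin (adjusted p = 0.71, 0.839 and 0.0543), but for shRNA3 its log2 value was -3.41 (adjusted p = 0.000216) without library 3.

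COL16A1 (ENSG00000084636, chromosome 1, 31652247 to 31704319, minus strand, overlapped by an antisense gene) encodes the chain of type XVI collagen, a fibril-associated collagen. Its level was 31.1, 31.7 and 35.0 CPM in NC. It was 2.94, 4.02 and 6.56 CPM in shRNA1, 3.57, 3.83 and 3.49 CPM in shRNA2 and 5.64, 8.60 and 7.40 CPM in shRNA3. Every shRNA library lay far below every NC library, and library 3 of shRNA3 lay between its other 2. COL16A1 fell 7.23-fold, 8.95-fold and 4.51-fold for shRNA1, shRNA2 and shRNA3, with log2 fold changes of -2.85 ± 0.29, -3.16 ± 0.29 and -2.17 ± 0.28 (SE) and edgeR adjusted p of 1.1e-05, 6.08e-06 and 6.84e-05. With library 3 alone, the shRNA3 value was -2.11.

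COL12A1 (ENSG00000111799, chromosome 6, 75084326 to 75206051, minus strand), the chain of type XII collagen, is also fibril-associated. It was at 136, 125 and 126 CPM in NC, 81.0, 71.0 and 171 CPM in shRNA1, 78.3, 85.9 and 93.8 CPM in shRNA2 and 76.4, 70.2 and 59.9 CPM in shRNA3. All shRNA libraries but library 3 of shRNA1 were below the NC libraries. The log2 fold change was -0.26 ± 0.27 (adjusted p = 0.434) for shRNA1, -0.58 ± 0.27 (adjusted p = 0.0916) for shRNA2 and -0.90 ± 0.27 (adjusted p = 0.0151) for shRNA3 in edgeR. The shRNA2 difference passed when fitted with the NC libraries only (-0.58, adjusted p = 1.47e-06) and with unscaled library totals (-0.72, adjusted p = 0.0428). Library 3 decided the shRNA1 value, which was -0.75 (adjusted p = 0.00153) without it. Without libraries 1 and 2 of shRNA3 the shRNA3 value was -1.07 (adjusted p = 0.0529). In the mean of the 3 hairpins COL12A1 was 1.5-fold lower (adjusted p = 0.0342), a call that was lost when any 1 of 8 libraries was left out.

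The chains of basement membrane collagen IV, encoded head to head on chromosome 13, changed to unequal extents. COL4A2 (ENSG00000134871, 110305812 to 110513209, plus strand) was at 242, 265 and 274 CPM in NC. It was at 75.4, 67.3 and 106 CPM in shRNA1, 82.8, 86.7 and 82.1 CPM in shRNA2 and 139, 133 and 60.0 CPM in shRNA3. All 9 shRNA libraries were below the lowest NC library. COL4A2 fell 3.14-fold, 3.10-fold and 2.35-fold, with log2 fold changes of -1.65 ± 0.28, -1.63 ± 0.28 and -1.23 ± 0.27 (SE) and adjusted p of 0.000398, 0.000452 and 0.00272 in edgeR. The shRNA3 value was -2.09 with library 3 alone.

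COL4A1 (ENSG00000187498, 110148963 to 110307233, minus strand) was at 81.5, 76.6 and 88.4 CPM in NC, 53.3, 47.5 and 73.9 CPM in shRNA1 and 52.5, 62.5 and 53.0 CPM in shRNA2. In shRNA3 it was at 104, 91.5 and 30.8 CPM. The shRNA1 and shRNA2 libraries were all below NC, but the differences did not pass the test, with log2 fold changes of -0.50 ± 0.34 (adjusted p = 0.239) and -0.55 ± 0.35 (adjusted p = 0.2) in edgeR. When each of these hairpins was fitted with the NC libraries only, both passed, at -0.50 (adjusted p = 0.0211) and -0.55 (adjusted p = 1.01e-05). The shRNA3 value was -0.13 ± 0.34 (adjusted p = 0.778), but -1.38 (adjusted p = 0.000207) with library 3 alone and 0.25 (adjusted p = 0.171) without it.

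The ratio of COL4A1 to COL4A2 counts per kilobase of exon is a value within each library, so that scaling between libraries does not enter it. It was 0.441, 0.378 and 0.423 in NC. It was 0.925, 0.924 and 0.914 in shRNA1, 0.829, 0.943 and 0.845 in shRNA2 and 0.975, 0.901 and 0.673 in shRNA3. All 9 shRNA libraries were above all NC libraries, with group means of 0.921, 0.872 and 0.85 for shRNA1, shRNA2 and shRNA3 against 0.414 ± 0.032 (SD, n = 3) in NC. The log2 difference was 1.08, with an adjusted p of 0.00909 in an exact two-sided permutation test over the 220 splits of 9 against 3 libraries, the smallest p this test can give (2 ratios tested). The 9 libraries come from 3 hairpins. Among single genes, 44.8% had no overlap between the shRNA and NC libraries, and the share among other gene pairs was not computed. The gene bodies overlap by 1422 bases on opposite strands, and use of strand in counting is not given in the sources used here.

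**Figure D2:**
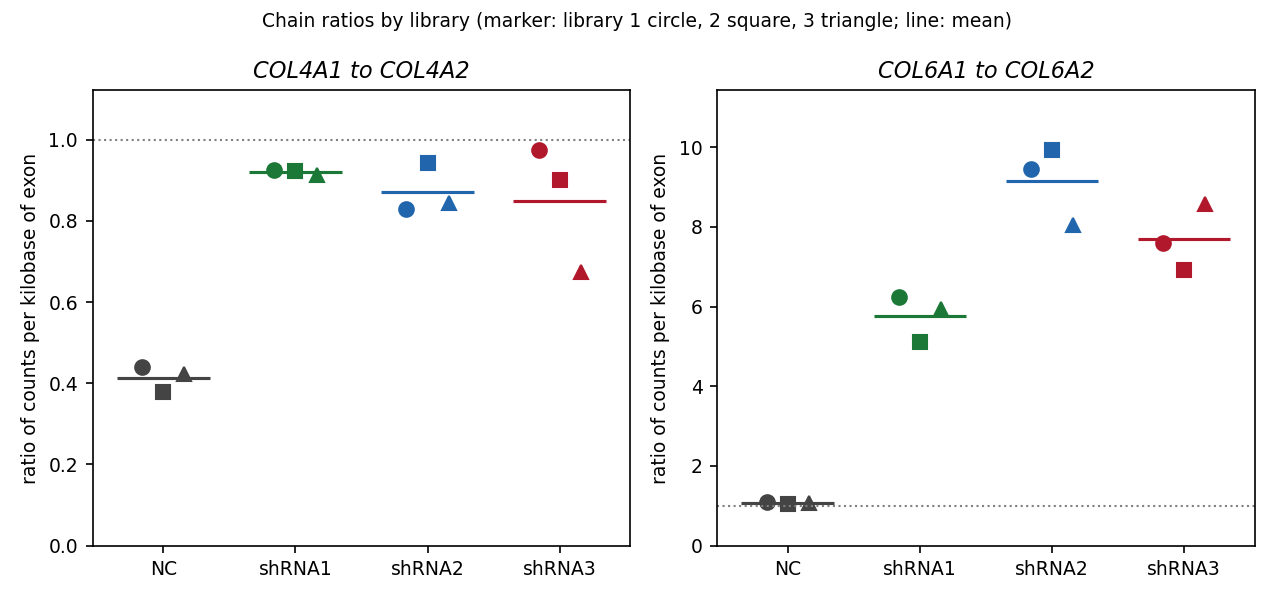
Ratio of counts per kilobase of exon for COL4A1 to COL4A2 (left) and COL6A1 to COL6A2 (right) in each library, on linear axes from 0, with lines at group means and a dotted line at a ratio of 1. NC libraries sit at 0.378 to 0.441 and 1.05 to 1.09, and the shRNA libraries at 0.673 to 0.975 and 5.12 to 9.93.

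COL6A1 (ENSG00000142156, chromosome 21, 45981737 to 46005050, plus strand) encodes the alpha-1 chain of type VI collagen. Its level was 256, 250 and 246 CPM in NC, 137, 114 and 100 CPM in shRNA1, 145, 140 and 133 CPM in shRNA2 and 260, 274 and 147 CPM in shRNA3. The shRNA1 and shRNA2 libraries were all below NC, and in shRNA3 library 3 alone was. COL6A1 fell 2.14-fold for shRNA1 (log2 fold change -1.10 ± 0.21, adjusted p = 0.00093) and 1.8-fold for shRNA2 (-0.85 ± 0.21, adjusted p = 0.00494) in edgeR. The shRNA3 value was -0.14 ± 0.21 (adjusted p = 0.577), and with library 3 alone it was -0.74 (adjusted p = 0.00107). With unscaled library totals it was -0.53 and called (adjusted p = 0.00956), where the median of all genes was -0.35.

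COL6A2, the alpha-2 chain, whose gene starts 93046 bases beyond the end of COL6A1 on the same strand, changed far more. It had 4688, 4888 and 4566 counts in NC, 443, 463 and 329 in shRNA1, 263, 253 and 300 in shRNA2 and 465, 549 and 348 in shRNA3. COL6A2 fell 11.5-fold, 15.3-fold and 7.74-fold (edgeR adjusted p = 1.63e-06, 8.53e-07 and 4.9e-06). The ratio of COL6A1 to COL6A2 per kilobase of exon was 1.09, 1.05 and 1.07 in NC. It was 6.25, 5.12 and 5.95 in shRNA1, 9.46, 9.93 and 8.04 in shRNA2 and 7.59, 6.91 and 8.57 in shRNA3. All 9 shRNA libraries lay above NC, with a log2 difference of 2.78 and an adjusted p of 0.00909 in the same exact permutation test. Here too, the share among other gene pairs was not computed. The chain that completes type VI collagen, COL6A3, had at most 15 counts in any library and was not tested.

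COL17A1 (ENSG00000065618, chromosome 10, 104031286 to 104085957, minus strand) was the one collagen of the 10 called higher. It was at 358, 297 and 299 CPM in NC, 363, 332 and 390 CPM in shRNA1, 492, 533 and 513 CPM in shRNA2 and 792, 710 and 348 CPM in shRNA3. Library 2 of shRNA1 and library 3 of shRNA3 lay within the NC range, and the other 7 shRNA libraries were above it. The log2 fold change was 0.18 ± 0.24 (adjusted p = 0.543) for shRNA1, 0.69 ± 0.25 (adjusted p = 0.0341) for shRNA2 and 0.95 ± 0.25 (adjusted p = 0.00668) for shRNA3 in edgeR. Without libraries 1 and 2 the shRNA3 value was 0.16 (adjusted p = 0.314). The shRNA2 call was lost when NC library 2 or 3 or any shRNA2 library was left out (adjusted p from 0.0606 to 0.0998), and the mean call was lost without NC library 2 or 3 (adjusted p = 0.0928 and 0.0932).

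**Figure D3:**
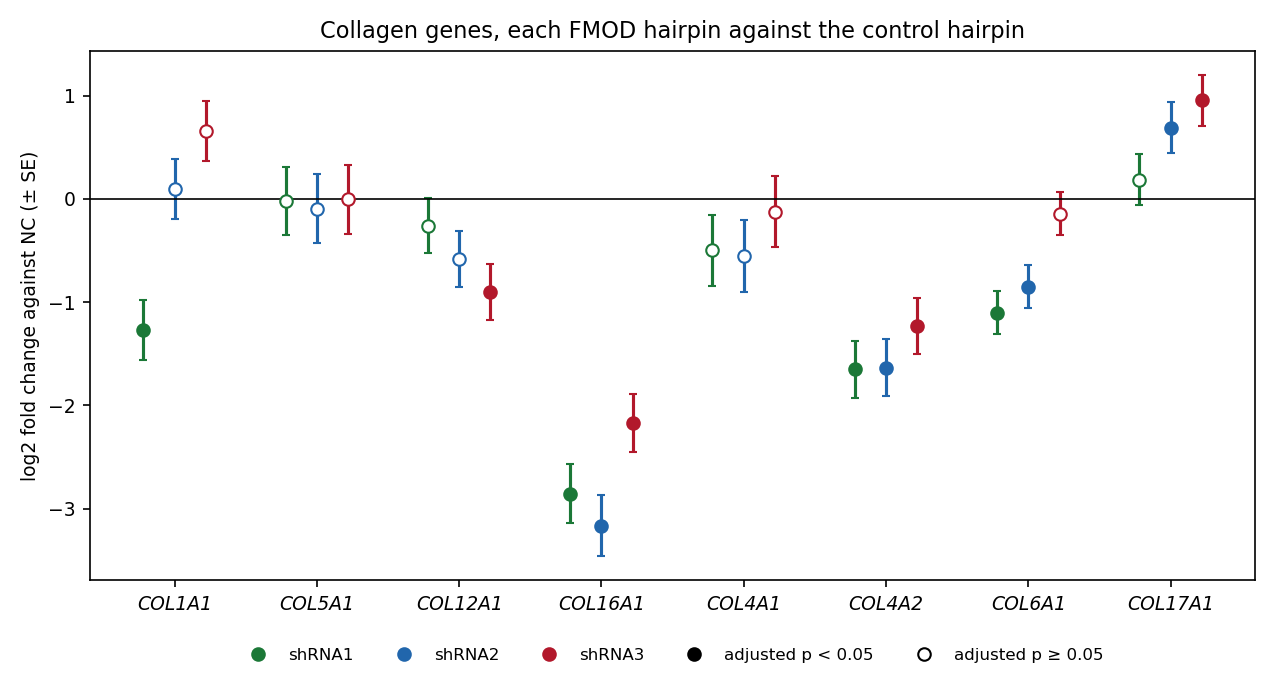
Log2 fold change against NC (points) with SE (bars) for each hairpin, for 8 of the collagen genes. Filled points have an adjusted p under 0.05 in edgeR. COL1A2 is left out because its shRNA libraries hold 0 to 4 counts, and COL3A1 because it was not tested. COL16A1 and COL4A2 are filled below 0 for all 3 hairpins, and COL1A1 runs from -1.27 for shRNA1 to 0.66 for shRNA3.

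In edgeR with all libraries, the share of these genes called between hairpins was near that of all genes. COL1A1 was called between shRNA1 and shRNA2 (lower, 1 of 9 genes, where 12.3% of all genes were called, 5.79% higher and 6.51% lower), and COL1A1, COL6A1 and COL17A1 between shRNA1 and shRNA3 (all lower, 3 of 9, where 30.0% of all genes were called, 11.9% higher and 18.1% lower). Between shRNA2 and shRNA3 the count was 0 of 9 in edgeR, where 8.40% of all genes were called (1.92% higher, 6.48% lower), while 2 had an unadjusted p under 0.05. DESeq2 called 2, COL6A1 and COL16A1, beside 21.6% of all genes. Without library 3 of shRNA3, 7 of 9 were called between shRNA1 and shRNA3, where 63.4% of all genes were, and 7 of 9 between shRNA2 and shRNA3, where 59.2% were.

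Per kilobase of exon, the order of levels in NC began with COL6A1 at 46.9 ± 0.965 and COL17A1 at 45.0 ± 4.93 CPM per kilobase (SD, n = 3), whose libraries overlapped. COL5A1 (14.6 ± 0.878) and COL4A2 (13.5 ± 0.845) followed, also overlapping, and then COL12A1 (10.3 ± 0.474), COL4A1 (5.58 ± 0.402), COL1A1 (4.25 ± 0.138), COL16A1 (3.51 ± 0.224) and COL1A2 (0.431 ± 0.0397), each clear of the next. COL17A1 had the highest mean in every shRNA group, at 51.2 ± 4.1, 72.5 ± 2.87 and 87.3 ± 33.4 CPM per kilobase. It was clear of COL6A1 (21.9 ± 3.44 and 26.1 ± 1.13) in shRNA1 and shRNA2, and in shRNA3 the 2 genes overlapped. COL4A2 dropped from above COL12A1 in NC to below it in shRNA1 and shRNA2. The 10 genes summed to 1270 to 1310 CPM in NC, 782 to 1070 in shRNA1, 1050 to 1110 in shRNA2 and 753 to 1650 in shRNA3.

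Of the other 34 collagen genes, 19 were tested and 14 were called in 1 direction for all 3 hairpins, 3 higher and 11 lower, where 16.0% and 19.7% of all genes were. COL4A4, COL8A1 and COL21A1 passed the filter on low counts through NC alone, so they could only be called lower. COL8A2, a chain of the short-chain network collagen VIII, fell from 20.3 to 24.2 CPM in NC to 0.291 to 0.995 CPM in the shRNA libraries, or 36.1-fold, 42.3-fold and 24.2-fold (edgeR adjusted p = 1.7e-06, 1.47e-06 and 3.36e-06). COL11A2, a chain of the fibrillar collagen XI, fell 4.05-fold, 14.7-fold and 5.62-fold. COL4A6, an epithelial chain of basement membrane collagen, rose from 123 to 133 counts in NC to 674 to 1214 in the shRNA libraries. This was 8.07-fold, 8.54-fold and 7.13-fold higher (adjusted p = 5.97e-07, 4.88e-07 and 8.87e-07), so that collagen IV chains moved both ways. COL4A5, its head-to-head neighbour on chromosome X with 346 bases between them, had log2 fold changes of 0.46, 0.82 and 0.75 (edgeR adjusted p = 0.182, 0.0283 and 0.042). The shRNA3 libraries of COL4A5 spread from 26.1 to 62.5 CPM. Library 3 was the lowest of them and lay within the NC range of 25.6 to 29.9 CPM.

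Rises from very low levels were seen for COL5A3 and COL15A1. Both passed the filter on low counts through shRNA libraries alone, so they could only be called higher. COL5A3, a chain of type V collagen, went from at most 0.148 CPM in NC to 0.802 to 4.06 CPM. Its pooled count ratios were 54.7 (95% interval 18.4 to 268.0), 75.1 (25.3 to 367.0) and 24.9 (8.1 to 124.0), with edgeR adjusted p of 6.17e-05, 3.61e-05 and 0.000396. COL15A1, a basement membrane zone collagen, went from 0.0985 to 0.304 CPM in NC to 0.371 to 8.91 CPM (27.5-fold, 6.31-fold and 10.6-fold, adjusted p = 0.00175, 0.0421 and 0.0125). Its shRNA3 libraries spread from 0.371 to 5.81 CPM, and the shRNA3 call was lost without library 3 (log2 value 1.31, adjusted p = 0.147) or NC library 2 (adjusted p = 0.053). For shRNA2 its call was lost with adjusted p up to 0.129 when NC library 1, 2 or 3 or shRNA2 library 2 or 3 was left out.

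**Figure D4:**
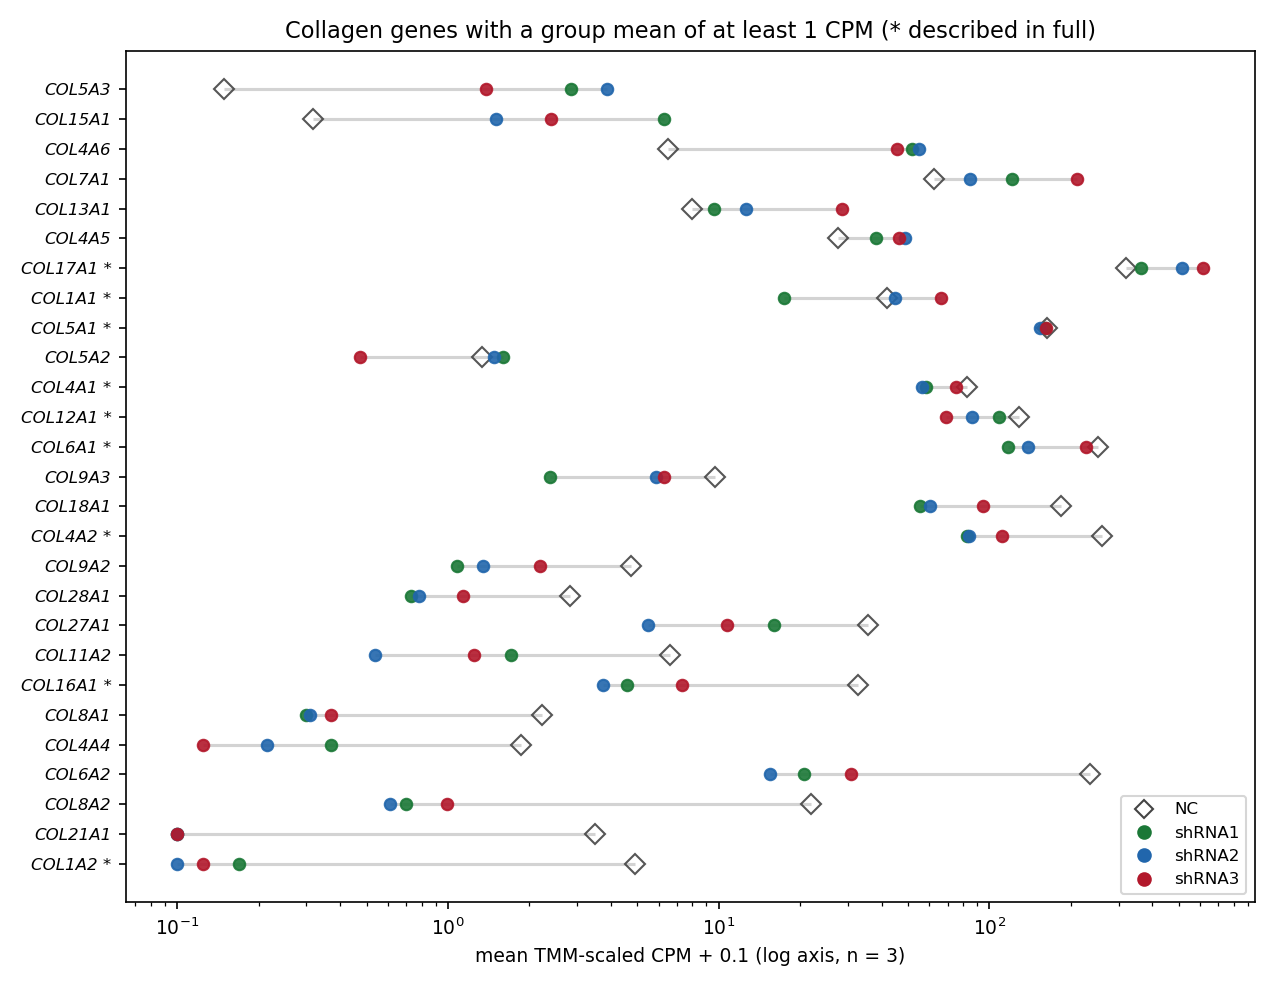
Mean TMM-scaled CPM plus 0.1 (log axis, n = 3) in NC (open diamonds) and the 3 hairpin groups (filled circles) for the 27 collagen genes with a group mean of at least 1 CPM, ordered by the change. Stars mark the genes described in full. COL1A2, COL21A1 and COL8A2 lie farthest below their NC diamonds, and COL5A3 farthest above.

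Genes that modify and fold collagen chains in the endoplasmic reticulum went both ways. Of 20 genes 18 were tested, and 8 were called in 1 direction for all 3 hairpins, 3 higher and 5 lower. For all genes these shares were 16.0% and 19.7%. P3H3 passed the filter on low counts through NC alone, so it could only be called lower. P3H2, a prolyl 3-hydroxylase that acts on basement membrane collagen, fell 7.36-fold, 11.2-fold and 30.0-fold (edgeR adjusted p = 4.46e-05, 1.46e-05 and 2.46e-06), from 108 to 114 CPM in NC to 3.26 to 26.4 CPM. PLOD2, which hydroxylates lysines used in cross-links, fell 2.15-fold, 3.39-fold and 3.33-fold. FKBP10, a collagen chaperone, rose from 9.33 to 10.1 CPM in NC to 36.5 to 92.7 CPM (4.02-fold, 5.93-fold and 7.68-fold), and CRTAP, a partner in prolyl 3-hydroxylation, rose 1.71-fold, 2.6-fold and 3.32-fold. The CRTAP call for shRNA1 (adjusted p = 0.0141) was lost without library 3 of that hairpin (adjusted p = 0.059).

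Among 12 genes of procollagen processing, 9 were tested and 3 were called in 1 direction for all 3 hairpins, 1 higher and 2 lower. Over all genes 16.0% were called higher and 19.7% lower. ADAMTS3 passed the filter on low counts through NC alone, so it could only be called lower. The tolloid-like proteases TLL2 and TLL1, relatives of the enzyme that trims the C-terminal propeptide, went in opposite directions. TLL2 fell 9.84-fold, 26.0-fold and 9.54-fold, from 6.46 to 9.79 CPM in NC. TLL1 rose 3.05-fold, 3.71-fold and 4.34-fold from 0.936 to 1.41 CPM, and its shRNA1 call (adjusted p = 0.0149) was lost without NC library 2 or shRNA1 library 3 (adjusted p = 0.0585 and 0.0777). For shRNA3 with library 3 alone the TLL1 value was 1.07 on the log2 scale (adjusted p = 0.106).

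Collagen receptors gave 1 higher and 1 lower call for all 3 hairpins among 9 tested of 12, beside 16.0% and 19.7% of all genes. ITGA2, the alpha subunit of an integrin that binds collagen, rose from 47.3 to 47.9 CPM in NC to 67.9 to 221 CPM (3.91-fold, 1.55-fold and 1.75-fold). MRC2, a receptor that takes up collagen for breakdown, fell 6.3-fold, 2.96-fold and 3.36-fold. Of the 8 hemidesmosome partners of COL17A1, all tested, PLEC was the one called in the same direction for all 3 hairpins. Over all genes the share was 35.7%. PLEC encodes plectin, which links the hemidesmosome to keratin filaments, and it rose 3.87-fold, 2.35-fold and 2.78-fold (edgeR adjusted p = 3.36e-06, 8.21e-05 and 2.46e-05).

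Of 9 basement membrane partners of collagen IV, 8 were tested, with 1 higher and 1 lower call for all 3 hairpins. Over all genes 16.0% were called higher and 19.7% lower. SPARC, a secreted protein that binds collagen, was at 686 to 748 CPM in NC. It fell to 16.6 to 29.8 CPM in shRNA1, 0.282 to 0.609 in shRNA2 and 0.745 to 2.62 in shRNA3, or 33.6-fold, 1510.0-fold and 533.0-fold (edgeR adjusted p = 1.7e-06, 1.04e-07 and 1.53e-07). NID1, which encodes nidogen and links laminin to collagen IV, had at most 0.151 CPM in NC and 3.63 to 25.0 CPM in the shRNA libraries. Its pooled count ratios were 52.4, 112.0 and 158.0 (adjusted p = 5.05e-05, 1.52e-05 and 8.85e-06). NID1 passed the filter on low counts through shRNA libraries alone, so it could only be called higher.

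Markers of other cell types were read beside these genes. All 4 tested of 9 fibroblast markers (PDPN, PDGFRB, ACTA2 and LUM) were called lower for all 3 hairpins, where 19.7% of all genes were. PDPN and LUM passed the filter on low counts through NC alone, so they could only be called lower. The 9 markers summed to 54.8 to 58.0 CPM in NC against 1.91 to 5.04 CPM in the shRNA libraries. PDPN, which some squamous carcinoma cells also express, had 629, 714 and 719 counts in NC and 0 in all 9 shRNA libraries, at least 230.0-fold, 202.0-fold and 175.0-fold lower. THY1, PDGFRA, DCN and DPT were at or under 3 counts in every NC library, and COL3A1 likewise. THY1 reached 12 counts in library 3 of shRNA1 and 6 in library 3 of shRNA3. DCN reached 5 counts in library 3 of shRNA1 and in library 1 of shRNA3, so not all 9 markers fell. The 4 tested markers moved with COL1A2, COL4A2, COL6A2 and COL16A1, and their part in those falls was not tested. In bulk RNA, fewer cells of a type and less RNA per cell cannot be told apart.

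The squamous markers were all tested, and 5 of 8 were called in 1 direction for all 3 hairpins, 3 higher and 2 lower. This stood beside 35.7% of all genes. KRT5, a keratin of basal keratinocytes, was at 965 to 1050 CPM in NC and 16.5 to 90.3 CPM in the shRNA libraries (47.1-fold, 12.6-fold and 13.5-fold lower). CDH1, which encodes E-cadherin, fell 8.44-fold, 6.04-fold and 4.89-fold. KRT14, the usual partner of KRT5, rose 7.31-fold, 3.23-fold and 19.6-fold, and KRT6A rose 3.08-fold, 4.64-fold and 2.29-fold. The KRT14 call for shRNA2 (adjusted p = 0.0256) was lost without NC library 1 or 2 or shRNA2 library 1 or 3 (adjusted p from 0.0502 to 0.0803). The summed squamous level was 2330 to 2530 CPM in NC and 1540 to 2630 CPM in the shRNA libraries, a sum over markers that moved in opposite directions. None of the 8 was at or under 3 counts in all libraries of a group. Of 6 endothelial and leukocyte markers 4 were tested, with PECAM1 called higher and CDH5 and VWF lower for all 3 hairpins. Over all genes 16.0% were called higher and 19.7% lower. PECAM1 passed the filter on low counts through shRNA libraries alone and VWF through NC alone, so each could be called in 1 direction only.

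The tested gene with at least 10 CPM whose log2 CPM followed each member most closely over the 12 libraries was found by Pearson correlation, given as a description. It was CYFIP2 for COL1A2 (0.998), PNPLA2 for COL6A1 (0.994), SPATA20 for COL1A1 (0.989), CALR for COL4A2 (0.989), ACTN4 for COL17A1 (0.989) and ANAPC13 for COL16A1 (0.983). CAP2 followed COL12A1 (0.973), SZRD1 followed COL4A1 (0.951) and KLHL29 followed COL5A1 (0.91). The libraries share 4 groups and the same scaling, which such values also reflect.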

How the data were processed

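RNA of 12 SCC-15 libraries (4 groups of 3, named by title) was sequenced after NEBNext Ultra library preparation, per the labels' protocols. The authors deposited estimated counts per gene, of which 13.8% were not whole, with no scaling. The submitters' processing notes name GRCh38, HISAT2 and HTSeq 0.11.2. The annotation, any filter, strand use and the origin of the fractions are not given in the sources used here. Columns matching no sample: 0.

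Counts were rounded, scaled by TMM and filtered with filterByExpr (minimum count 10, total 15), leaving 17532 genes. edgeR 4.0.16 (R 4.3.3, robust quasi-likelihood test, two-sided) was fitted to all 4 groups together (8 residual degrees of freedom, common biological coefficient of variation 0.289). P-values were adjusted over all tested genes by Benjamini-Hochberg (threshold 0.05), and a standard error is the log2 fold change over the square root of F. The test was checked on simulated data. A fold change against a group with 0 counts in all libraries is a bound, with that group set at 3 counts per library. Where the counts of a group summed to at most 10, it is a pooled count ratio with an exact 95% interval, which covers counting error only. No fold change is given where both groups had at most 3 counts in every library. Exon lengths and positions came from GENCODE 29 on GRCh38, and promoters from RefSeq (GRCh38.p14). Chain ratios used counts plus 0.5 on the log2 scale and were tested only where both genes had at least 10 counts in every library.

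The members and lists were chosen with earlier results of these data known. All members are named, as are FMOD, COL5A2, COL6A2 and COL6A3. From each other list came up to 4 genes (6 for collagens) with a mean of at least 1 CPM, called for all 3 hairpins in 1 direction, by size of the mean change. COL4A4, COL4A5, COL7A1, COL8A1, COL21A1, ADAMTS3, P3H3, LUM and VWF were named outside this rule. Alternatives were DESeq2 1.42.0 and its size factors, raw library totals, no filter, the compared groups only, a replicate block, adjusted p under 0.01, 0.1 as the ratio offset, no shRNA3 libraries 1 and 2, and each library left out. Same-numbered libraries of different groups did not deviate together (correlations from -0.0577 to 0.0466), so numbers were not taken to pair libraries.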

Additional observations from a re-analysis of the deposited data

Results flagged for a closer look

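Of the 10 genes, 3 differed between hairpins in the edgeR test of the difference itself. COL1A1 was lower with shRNA1 (17.3 ± 2.47 CPM, SD, n = 3) than with shRNA2 (44.6 ± 2.05 CPM), a log2 difference of -1.37 (adjusted p = 0.0145), and lower than with shRNA3 (65.9 ± 29.6 CPM), a difference of -1.93 (adjusted p = 0.00346). All 3 shRNA1 libraries were below every library of the other hairpins. With library 3 of shRNA3 alone, whose spread was taken from the other groups, the latter difference was -0.90 (adjusted p = 0.00531), and without that library it was -2.25 (adjusted p = 1.19e-09). The difference from shRNA2 lost its call without shRNA1 library 1 or 2 or shRNA2 library 1 or 3 (adjusted p from 0.0532 to 0.0729).

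COL6A1 was lower with shRNA1 (117 ± 18.4 CPM) than with shRNA3 (227 ± 69.8 CPM), a log2 difference of -0.96 (adjusted p = 0.0102), which was -0.34 (adjusted p = 0.163) with library 3 of shRNA3 alone. COL17A1 was lower with shRNA1 (362 ± 28.9 CPM) than with shRNA3 (617 ± 236 CPM), by a log2 difference of -0.77 (adjusted p = 0.0374). With library 3 of shRNA3 alone that value was 0.04 (adjusted p = 0.904), and the call was also lost without shRNA1 library 1, 2 or 3 or shRNA3 library 1 or 2 (adjusted p from 0.0635 to 0.136).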

How the results depend on the processing

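Changes of the 10 genes and of the other named genes were compared with the main fit, together with counts of other collagen genes called. Of these values, 2364 kept their direction and side of the threshold or, for counts, stayed similar. Another 64 lost their call, 35 gained one, 46 turned and 1 count moved. Between shRNA1 and shRNA2 the count of collagen genes called (1) was 2 with the compared groups only (41.0% of all genes called) and 0 at adjusted p under 0.01, and 0 to 1 with a library left out. Between shRNA1 and shRNA3 the count (3) was 0 with the compared groups only, where 0 of 15328 genes were called, 1 at adjusted p under 0.01 and 2 to 7 with a library left out, the 7 beside 63.4% of all genes. Between shRNA2 and shRNA3 the count (0) was 1 with DESeq2 size factors, 2 with DESeq2 (21.6% of all genes), 1 without shRNA3 libraries 1 and 2 (1.27%) and 0 to 7 with a library left out, the 7 beside 59.2%. With a library left out, the other counts ranged from 5 to 6, 4 to 5 and 5 to 7 for shRNA1, shRNA2 and shRNA3 against NC and 4 to 6 for their mean. Other settings went beyond these ranges. For shRNA2 the count was 6 with raw totals (50.6% of all genes) and 7 with the compared groups only (79.2%). For shRNA3 it was 4 at adjusted p under 0.01, and for the mean 7 with raw totals (57.7%). The counts without shRNA3 libraries 1 and 2 are given above. Of the other collagen genes, 11 rather than 17 were called for shRNA3 with the compared groups only, where the share of all genes called went from 53.9% to 43.4%. Raw totals moved the median of all genes to -0.10, -0.18 and -0.35 for shRNA1, shRNA2 and shRNA3, and for shRNA3 the calls over all genes from 4622 higher and 4835 lower to 3214 and 5945.

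Of the log2 values that turned, COL17A1 between shRNA1 and shRNA3 had been called. COL5A1 against NC turned for shRNA1 to 0.0029 with no filter and 0.00097 with the replicate block, and for shRNA3 to 0.071 with the compared groups only. COL1A1 turned to -0.040 for shRNA2 with raw totals and to -0.36 for shRNA3 without libraries 1 and 2. Between shRNA1 and shRNA2, COL4A2 turned to 0.028 with raw totals. Between shRNA1 and shRNA3, COL5A1 turned to 0.32 with raw totals, 0.0030 with no filter and 0.047 with the replicate block. Between shRNA2 and shRNA3, raw totals turned COL5A1 to 0.20 and COL17A1 to 0.0020. Without shRNA3 libraries 1 and 2, values between shRNA1 and shRNA3 turned to 0.90 for COL4A1, 0.45 for COL4A2, 1.21 for COL5A1 and 0.040 for COL17A1. Those between shRNA2 and shRNA3 turned to 0.47 for COL1A1, 0.85 for COL4A1, 0.47 for COL4A2, 1.14 for COL5A1 and 0.55 for COL17A1. The COL5A2 mean against NC turned to 0.010. The cause was not tested.

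With a library left out, values crossed 0 for COL5A1 in shRNA1 (-0.21 to 0.12), shRNA3 (-0.27 to 0.36) and the mean (-0.11 to 0.086), and for COL4A1 (-0.36 to 0.25) and COL6A1 (-0.25 to 0.086) in shRNA3. They also did between shRNA1 and shRNA2 for COL4A1 (-0.15 to 0.17), COL4A2 (-0.23 to 0.10), COL5A1 (-0.13 to 0.19), COL12A1 (-0.18 to 0.54) and COL16A1 (-0.063 to 0.54). COL5A1 ranged from -0.37 to 0.27 between shRNA1 and shRNA3 and from -0.44 to 0.20 between shRNA2 and shRNA3. COL5A2 against NC ranged from -0.0024 to 0.45 for shRNA1 and from -0.035 to 0.35 for shRNA2.

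The log2 differences of the chain ratios stayed at 1.02 to 1.13 (COL4A1 to COL4A2) and 2.73 to 2.85 (COL6A1 to COL6A2) with a library left out. The adjusted p of the exact permutation test was then up to 0.0364, each time the smallest this test can give with the libraries left. Its size is set by the number of splits. With the replicate block they were 1.08 and 2.78, where p = 0.25 is the smallest an exact sign-flip test on 3 pairs can give. Same-numbered libraries shared only a number, and the block left the counts of collagen genes called against NC at 5, 5 and 5. Under the block the adjusted p of COL17A1 between shRNA1 and shRNA3 was 0.0576 and that of COL15A1 for shRNA2 0.053. Depth limits COL1A2, COL3A1, COL5A2, COL6A3 and FMOD, whose counts in some or all groups were near 3 per library.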

Other observations

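COL21A1, which encodes a fibril-associated collagen and was picked after its values were seen, had 69, 87 and 47 counts in the NC libraries and 0 in all 9 shRNA libraries. COL7A1, the chain of the anchoring fibrils that attach epithelium to the matrix below, was also picked after its values were seen. It ranged from 56.2 to 70.3 CPM in NC, 81.0 to 193 in shRNA1, 83.0 to 86.2 in shRNA2 and 67.6 to 293 in shRNA3, so that the shRNA3 libraries overlapped NC.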
